A study of Homo sapiens with 4 samples.

Results

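The HOX genes are the 39 genes of the deposited gene table whose symbol is HOXA, HOXB, HOXC or HOXD followed by digits only, out of 58740 genes in all. They were taken by symbol alone, with no filter on their values, and ordered by cluster and paralog number. The rule itself was chosen with earlier results of these data known. The table holds 11 genes of the HOXA cluster on chromosome 7, 10 of the HOXB cluster on chromosome 17, 9 of the HOXC cluster on chromosome 12 and 9 of the HOXD cluster on chromosome 2. All 39 are protein-coding genes in GENCODE 29.

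RNA was sequenced from spheroids of 4 established human colon lines, each given with genotype WT and grown without a treatment for 7 days in low-attachment wells of 24-well plates, in medium with 10% fetal bovine serum. Colorectal carcinomas gave rise to HCT116 and DLD-1, and SW620 was derived from a metastasis in a lymph node. HCEC-1CT derives from non-cancerous colon and was made immortal with CDK4 and TERT. Each line has 1 library, made from RNA pooled over 2 plates, so no line has a replicate, no test was made and the 3 cancer lines are not replicates of each other. The 4 libraries corresponded to about 23300000 to 29500000 fragments.

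HOX genes encode homeodomain transcription factors that give cells their position along the head-to-tail axis. Within a cluster the genes lie in the order of their paralog numbers, low numbers at the 3′ end and high numbers at the 5′ end, and in the embryo they switch on in that order, the high-numbered ones in the most posterior tissues, including the hindgut that forms the colon. CDX factors and retinoic acid activate the clusters, Polycomb proteins keep silent stretches shut, and PBX and MEIS proteins bind DNA together with HOX proteins. Noncoding RNAs and microRNAs are also encoded between the genes.

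The labels call all 4 lines epithelial. The epithelial markers EPCAM, CDH1 and KRT19 were listed at 0 in HCEC-1CT, and the 5 epithelial markers examined summed to 1530 FPKM in HCT116, 5050 in DLD-1 and 6690 FPKM in SW620, against 7.15 in HCEC-1CT. The 8 fibroblast markers summed to 12.7 FPKM in HCT116, 1.46 in DLD-1 and 28.0 FPKM in SW620, against 1020 in HCEC-1CT, where all 8 reached 1 FPKM. The 5 intestinal epithelial markers summed to 6.08 FPKM in HCT116, 276 in DLD-1 and 98.4 FPKM in SW620, against 0.104 in HCEC-1CT. The 3 endothelial markers summed to 0.791 FPKM in HCT116, 2.56 in DLD-1 and 15.8 FPKM in SW620, against 5.45 in HCEC-1CT, mostly PECAM1 in SW620 and HCEC-1CT, with CDH5 at 0.0832 FPKM in SW620 and listed at 0 in the other 3 lines. The 3 blood markers summed to 4.72 FPKM in HCT116, 1.40 in DLD-1 and 16.7 FPKM in SW620, against 7.57 in HCEC-1CT, nearly all of it CD68, and PTPRC reached 0.129 FPKM at most. The part of this difference in cell character in the HOX values was not tested, and in bulk RNA fewer cells with a transcript and less transcript per cell cannot be told apart.

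Sequences are shown for 3 kinds of element in the clusters, and their part in the levels below was not tested. HOXA9 was the highest HOXA gene of HCT116, SW620 and HCEC-1CT, and HOXA13 that of DLD-1, and the 250 bases upstream of their RefSeq starts (GRCh38.p14, minus strand, chr7:27165538-27165787 and chr7:27200092-27200341) are given with each CpG in capitals. HOXA9 and HOXA13 were chosen for this after their values were seen.
HOXA9 upstream: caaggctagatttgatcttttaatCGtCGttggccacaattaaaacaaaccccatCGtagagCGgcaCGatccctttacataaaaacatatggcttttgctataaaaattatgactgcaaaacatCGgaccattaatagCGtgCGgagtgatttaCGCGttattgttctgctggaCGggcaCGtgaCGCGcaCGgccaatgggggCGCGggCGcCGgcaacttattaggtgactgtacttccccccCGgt
HOXA13 upstream: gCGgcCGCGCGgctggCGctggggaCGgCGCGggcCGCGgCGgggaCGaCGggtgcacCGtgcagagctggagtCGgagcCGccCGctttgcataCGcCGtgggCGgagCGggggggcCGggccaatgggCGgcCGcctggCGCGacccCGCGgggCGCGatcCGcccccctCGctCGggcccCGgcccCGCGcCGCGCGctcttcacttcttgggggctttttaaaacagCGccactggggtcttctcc
The HOXA9 stretch holds 20 CpG and is 48.8% G or C, and the HOXA13 stretch holds 40 CpG and is 78.0% G or C. Of 35116 RefSeq promoter entries, 67.6% had fewer CpG than HOXA9 and 97.8% fewer than HOXA13. Promoter entries were matched for 20 of the 39 genes.

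Both strands of these stretches were searched for 6 short motifs. TTTATG, a CDX-type site, had 1 match in the HOXA9 stretch and 0 in that of HOXA13, and 9.64% of all entries held it. TTTATT, its variant, matched neither stretch and is held by 16.0% of entries. The TATA box TATAAA matched once in HOXA9 and 0 times in HOXA13, with 10.7% of entries holding it. The nuclear receptor motif AGGTCA, held by 12.1%, and the PBX-HOX motif TGATTNAT, held by 2.48%, matched neither. The CCAAT box, held by 32.0%, matched once in each. The matches in HOXA9 do not overlap. A match is a run of letters and not a shown binding site.

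The microRNAs encoded inside the clusters are shown as mature RefSeq sequences with the seed, bases 2 to 8, in capitals, because one of them pairs almost without a break with a HOX transcript that set the cancer lines apart. MiR-196a is made from MIR196A1 (chr17:48632532-48632553, minus strand) beyond HOXB9 and from MIR196A2 (chr12:53991762-53991783, plus strand) in HOXC, and miR-196b from MIR196B (chr7:27169528-27169549, minus strand) within the HOXA9 locus. MiR-10a comes from MIR10A (chr17:48579904-48579926, minus strand) within the HOXB4 locus.
hsa-miR-196a-5p: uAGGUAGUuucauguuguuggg
hsa-miR-196b-5p: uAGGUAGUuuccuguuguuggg
hsa-miR-10a-5p: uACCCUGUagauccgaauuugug
HOXB8 site for miR-196a: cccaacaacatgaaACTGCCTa
The HOXB8 site lies in the 3′ UTR of HOXB8-201 (GRCh38, chr17:48612770-48612791, minus strand) and its capitals face the seed. All 22 bases pair with miR-196a, 21 as Watson-Crick pairs and 1 as a G-U pair, which falls within the seed. MiR-196 is known to cut the Hoxb8 transcript in mouse embryos. MiR-196a and miR-196b share the seed, and miR-10a has another. Ungapped matches to miR-196a in the 3′ UTRs of coding HOX transcripts were ranked with G-U pairs counted as pairs. The next best, in HOXA10 and HOXC11, each paired 19 bases, of which 8 were G-U pairs. A match in HOXD8 paired 18 bases but had more Watson-Crick pairs, 14 against 11.

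HOX RNA was most abundant in DLD-1. The 39 genes summed to 159 FPKM in HCT116, 551 in DLD-1 and 306 FPKM in SW620, against 62.5 in HCEC-1CT. As a part of all protein-coding FPKM, that was 438 ppm in HCT116, 1780 ppm in DLD-1 and 933 ppm in SW620, against 218 ppm in HCEC-1CT, so the order of the lines was the same on this scale. A level of 1 FPKM or more was taken as detected. It was reached by 22 HOX genes for the HCT116 library, 19 for DLD-1 and 25 for SW620, against 14 for HCEC-1CT. Among 19892 protein-coding genes the same level was reached by 60.3% for HCT116, 58.0% for DLD-1 and 58.5% for SW620, against 55.1% for HCEC-1CT. The HOX shares were 56.4% for HCT116, 48.7% for DLD-1 and 64.1% for SW620, against 35.9% for HCEC-1CT. Of the 39 genes, 28 reached 1 FPKM in at least 1 line, where 69.3% of protein-coding genes did, and 12 in all 4 lines, where 46.8% did.

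The lines differed in which cluster supplied the RNA. HOXA held 63.5% of the summed HOX FPKM for HCT116, 33.0% for DLD-1 and 24.2% for SW620, against 45.9% for HCEC-1CT. HOXB held 28.6% for HCT116, 66.7% for DLD-1 and 35.0% for SW620, against 50.9% for HCEC-1CT. HOXC held 6.40% for HCT116, 0.101% for DLD-1 and 40.0% for SW620, against 0.246% for HCEC-1CT. HOXC RNA was thus mostly a matter of 1 library, SW620, with a low level in HCT116. HOXD held 2.99% at most, in HCEC-1CT. DLD-1 had the highest level of the 4 lines for 19 of the 39 genes, SW620 for 12, HCT116 for 6 and HCEC-1CT for 2, namely HOXB2 and HOXD1.

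**Figure D1:**
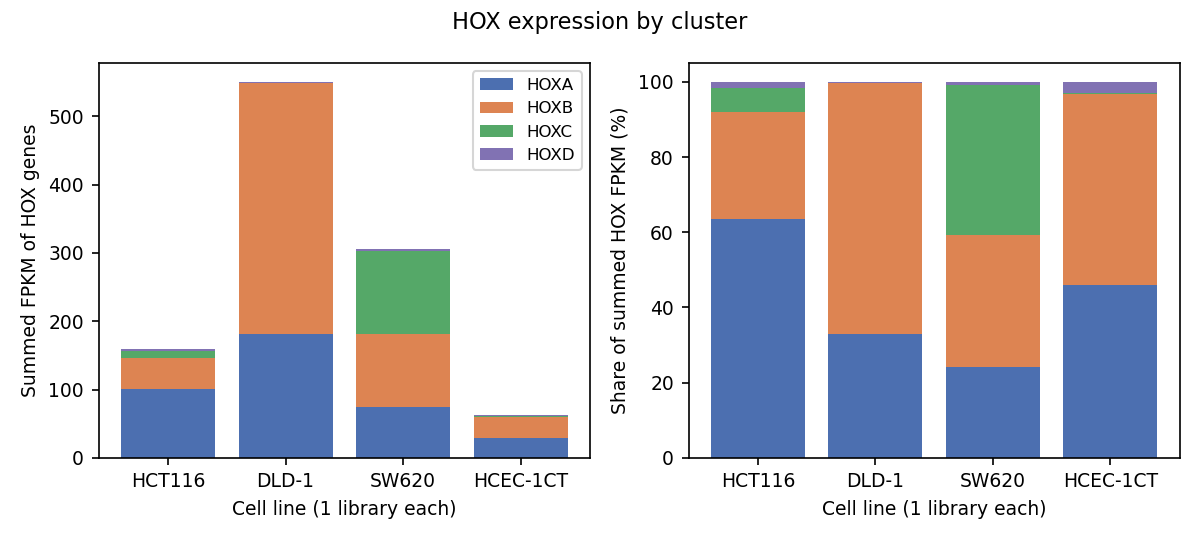
Summed FPKM of the HOX genes (left) and the share of that sum in percent (right) for each line, with 1 library per bar and colours for the clusters. DLD-1 stands highest at 551 FPKM with most of it from HOXB, SW620 is the line with a large HOXC part, and HCEC-1CT is lowest at 62.5 FPKM.

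Genes of paralog groups 9 to 13, the posterior classes, supplied 55.1% of HOX FPKM for HCT116, 39.8% for DLD-1 and 57.8% for SW620, against 26.0% for HCEC-1CT. Of these 16 genes, 9 were detected for HCT116, 6 for DLD-1 and 10 for SW620, against 3 for HCEC-1CT, which were HOXA9, HOXA10 and HOXA11. Groups 1 to 3, the anterior classes, supplied 13.8% for HCT116, 19.9% for DLD-1 and 6.44% for SW620, against 36.5% for HCEC-1CT, where most of it was HOXB2. Groups 4 to 8 lay between 31.2% and 40.4% in all 4 lines. Across the 39 genes, Spearman's rho of paralog number with FPKM was 0.00 for HCT116, -0.06 for DLD-1 and -0.01 for SW620, against -0.34 for HCEC-1CT, and neighbouring genes share a cluster, so this is a description only. Within HOXB, with 10 genes, rho was 0.66 for HCT116, 0.43 for DLD-1 and 0.44 for SW620, against -0.39 for HCEC-1CT. The other clusters did not share this contrast. Within HOXA, with 11 genes, rho was 0.14 for HCT116, 0.66 for DLD-1 and 0.15 for SW620, against 0.46 for HCEC-1CT. For HOXC it was -0.05 for HCT116, -0.38 for DLD-1 and 0.05 for SW620, against -0.46 for HCEC-1CT. For HOXD it was 0.05 for HCT116, 0.63 for DLD-1 and -0.49 for SW620, against -0.44 for HCEC-1CT.

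**Figure D2:**
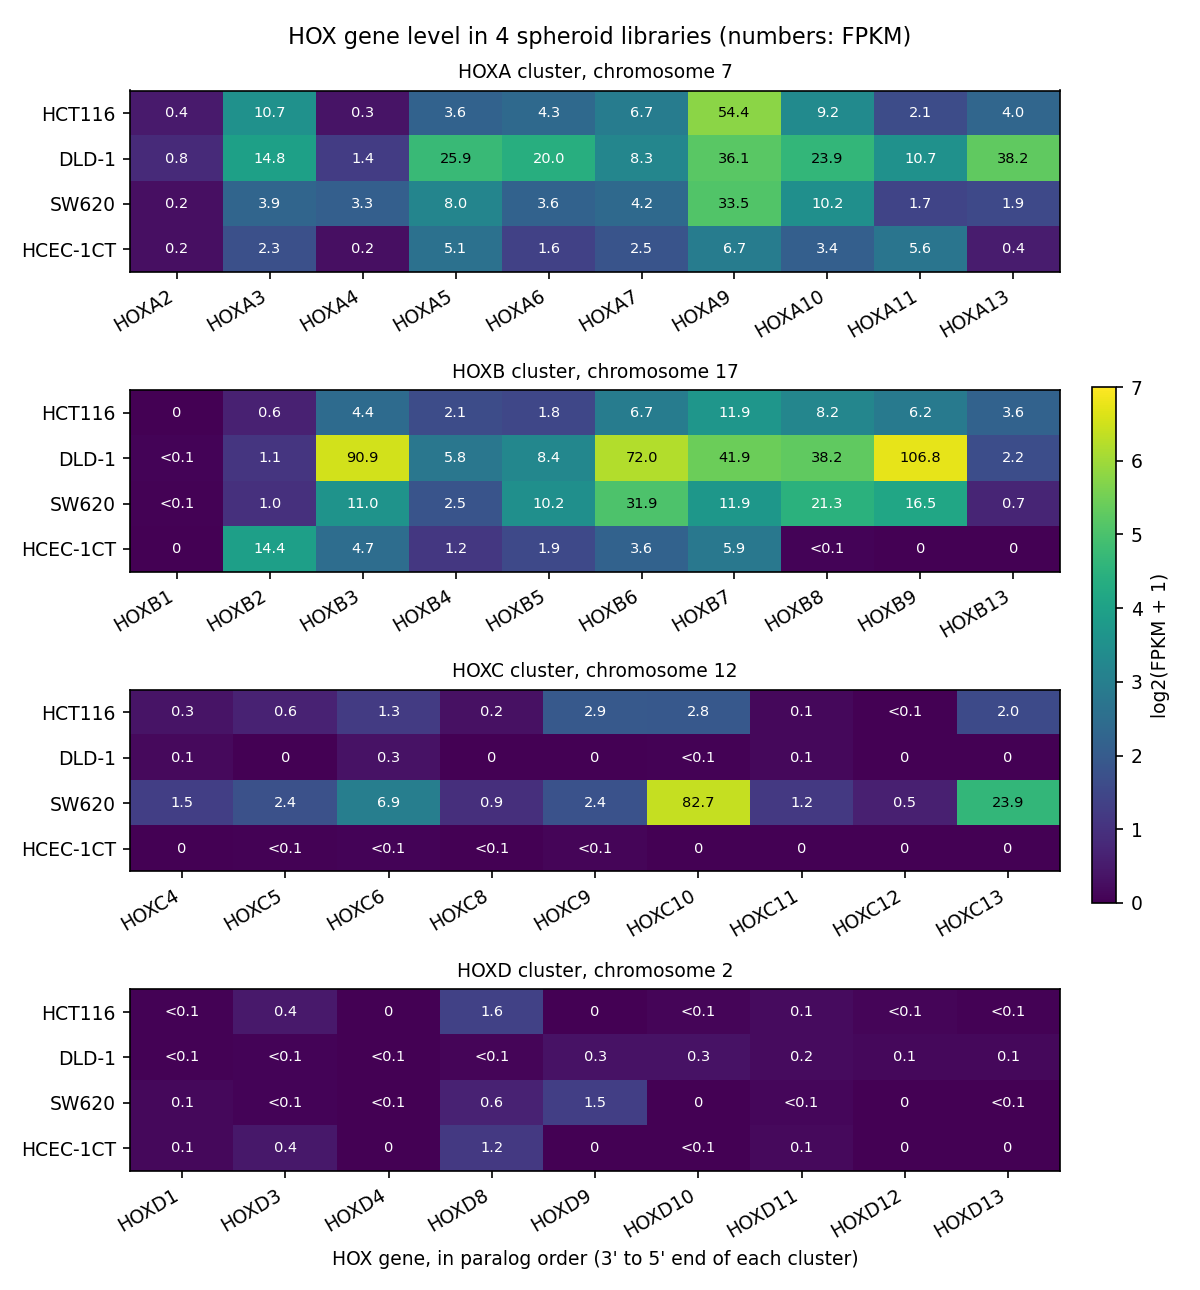
Level of 38 HOX genes in paralog order, 1 panel per cluster and 1 row per line, with colour for log2(FPKM + 1) and the FPKM printed in each cell. Most HOXA and HOXB genes have RNA in all lines, the 5′ end of HOXB in HCEC-1CT excepted, HOXC has RNA mainly in SW620, and HOXD has little in any line.

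To compare each cancer line with HCEC-1CT, the log2 ratio of FPKM plus a pseudocount of 1 was used, which understates the change of low genes, and 4-fold or more was counted. In HCT116, 4 HOX genes were higher and 1 was lower, where 7.4% and 3.92% of protein-coding genes were, so the HOX shares of 10.3% and 2.56% lay near the background, while with a pseudocount of 0.1 the higher share was 33.3% of HOX genes, where 14.6% of protein-coding genes were. In DLD-1, 11 HOX genes (28.2%) were higher and 1 was lower, where 7.49% and 4.54% of protein-coding genes were. In SW620, 7 HOX genes (17.9%) were higher and 1 was lower, where 7.03% and 4.37% were. The 3 comparisons share the HCEC-1CT library. HOXA9, HOXB8 and HOXB9 were higher in all 3 cancer lines, where 2.4% of protein-coding genes were, and HOXB2 was lower in all 3, where 2.36% were. The median log2 ratio over all 39 genes was 0.31 for HCT116, 0.35 for DLD-1 and 0.90 for SW620, and over all protein-coding genes it was 0.05 for HCT116, 0.02 for DLD-1 and 0.02 for SW620.

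Genes at 1 FPKM or more in all 4 lines lay higher in the cancer lines than in HCEC-1CT by a median of 0.38 for HCT116, 0.42 for DLD-1 and 0.30 for SW620 on the log2 scale, and the ratios here include that shift. With the shift removed, HOXB8, HOXB9 and HOXB2 still passed 4-fold in all 3 lines, and HOXA9 passed in HCT116 alone, with log2 ratios of 1.87 in DLD-1 and 1.88 in SW620. With a pseudocount of 5, 0 HOX genes passed in all 3 lines in either direction.

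**Figure D3:**
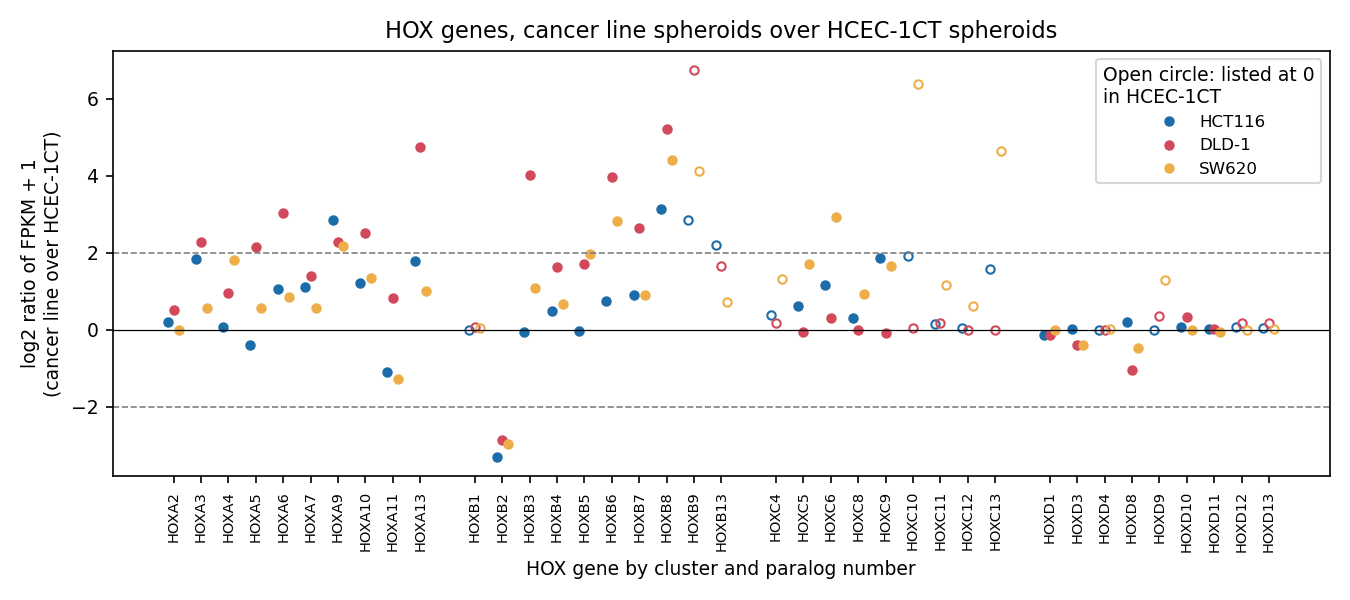
Log2 ratio of FPKM + 1 of each cancer line over HCEC-1CT for 38 HOX genes in cluster order, with dashed lines at 4-fold and open circles for genes listed at 0 in HCEC-1CT. HOXB8 and HOXB9 lie above the upper line in all 3 cancer lines, HOXB2 lies below the lower line in all 3, and the HOXD genes all lie between the dashed lines.

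In HOXA, HOXA9 was the one gene past 4-fold in all 3 cancer lines. HOXA9, a posterior factor best known as a driver of leukaemia, stood at 54.4 FPKM in HCT116, 36.1 in DLD-1 and 33.5 FPKM in SW620, against 6.65 in HCEC-1CT (ENSG00000078399, chr7:27162435-27175180). Other genes share 27.0% of its exonic bases. It was the highest HOX gene of HCT116, and its log2 ratios were 2.86 for HCT116, 2.28 for DLD-1 and 2.17 for SW620. Its level ranked above 95.7% of protein-coding genes for HCT116, 91.5% for DLD-1 and 90.6% for SW620, against 66.1% for HCEC-1CT.

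HOXA13, the most posterior gene of the cluster and one needed for the hindgut and its outlet in mice, set DLD-1 apart. It stood at 3.99 FPKM in HCT116, 38.2 in DLD-1 and 1.91 FPKM in SW620, against 0.444 in HCEC-1CT. DLD-1 lay 4-fold or more above each of the other 3 lines for HOXA13, HOXB3 and HOXB9, that is for 3 of the 39 genes, where 1.12% of protein-coding genes did so. The same rule found 2 HOX genes for SW620, where 1.07% of protein-coding genes passed, and 0 for HCT116, where 0.98% passed.

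HOXA10, a factor of the uterus and blood in mice, stood at 9.20 FPKM in HCT116, 23.9 in DLD-1 and 10.2 FPKM in SW620, against 3.38 in HCEC-1CT. HOXA11, a gene of the kidney and forelimb, lay on both sides of HCEC-1CT and stood at 2.07 FPKM in HCT116, 10.7 in DLD-1 and 1.69 FPKM in SW620, against 5.58 in HCEC-1CT. DLD-1 was thus above HCEC-1CT, and HCT116 and SW620 were below it, with no ratio past 4-fold. About 31.1% of the exonic bases of HOXA11 are also exonic in HOXA11-AS on the other strand, so its reads cannot be told apart from those of its antisense partner if the libraries did not keep strand.

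The central HOXA genes were highest in DLD-1. HOXA5, a lung and gut patterning gene in mice, stood at 3.58 FPKM in HCT116, 25.9 in DLD-1 and 8.02 FPKM in SW620, against 5.09 in HCEC-1CT. HOXA6 stood at 4.27 FPKM in HCT116, 20.0 in DLD-1 and 3.57 FPKM in SW620, against 1.55 in HCEC-1CT. HOXA7 ranged less, at 6.68 FPKM in HCT116, 8.32 in DLD-1 and 4.24 FPKM in SW620, against 2.53 in HCEC-1CT, and 62.5% of its exonic bases are shared with HOXA-AS3 on the other strand. Of the 39 HOX genes, 25 share exonic bases with another gene, among them HOXA4 (47.3%), HOXA6 (40.1%) and HOXA10 (26.3%).

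HOXA2, HOXA3 and HOXA4 lie towards the anterior end. HOXA3, a gene of the pharyngeal arches, stood at 10.7 FPKM in HCT116, 14.8 in DLD-1 and 3.88 FPKM in SW620, against 2.28 in HCEC-1CT. HOXA4 was highest in SW620, at 0.281 FPKM in HCT116, 1.37 in DLD-1 and 3.32 FPKM in SW620, against 0.225 in HCEC-1CT, while HOXA2, a hindbrain gene, stayed below 1 FPKM in every line with 0.768 at most, in DLD-1. The only HOXA members that passed 4-fold outside DLD-1 were HOXA9 in HCT116 and SW620, and in DLD-1 HOXA3, HOXA5, HOXA6, HOXA9, HOXA10 and HOXA13 passed.

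In HOXB, HCEC-1CT was the line in which the 5′ end was at or near 0. HOXB8, which lies at chr17:48611377-48614939 (ENSG00000120068), stood at 8.25 FPKM in HCT116, 38.2 in DLD-1 and 21.3 FPKM in SW620, against 0.0517 in HCEC-1CT. HOXB9, its 5′ neighbour (ENSG00000170689, chr17:48621159-48626356), stood at 6.23 FPKM in HCT116, 107 in DLD-1 and 16.5 FPKM in SW620 and was listed at 0 in HCEC-1CT. All 3 cancer lines lay above HCEC-1CT for both genes, and DLD-1 lay highest. HOXB9 was the highest HOX gene of DLD-1, above 98.1% of protein-coding genes there. It has 1 transcript, for which these values correspond to about 407 fragments for HCT116, 6421 for DLD-1 and 1223 for SW620, and 1 fragment would have given 0.0131 FPKM in HCEC-1CT. Neither gene shares exonic bases with another annotated gene.

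HOXB13, a gene of the distal colon and prostate and the last at the 5′ end, stood at 3.61 FPKM in HCT116 (95% exact Poisson interval 3.23 to 4.03, counting error only), 2.15 in DLD-1 (1.85 to 2.50) and 0.658 in SW620 (0.504 to 0.833), and was listed at 0 in HCEC-1CT. The 3 cancer lines were thus apart beyond counting error, in an order unlike that of HOXB9. With the pseudocount of 1 HOXB13 passed 4-fold in HCT116 alone, at a log2 ratio that depends on the pseudocount because HCEC-1CT is listed at 0. It did not pass in HCT116 with the shift between libraries removed, it passed in DLD-1 too on the TPM scale, and it passed in all 3 lines with a pseudocount of 0.1.

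The levels stepped down at HOXB8 in HCEC-1CT. HOXB7, the next gene towards the 3′ end, stood at 11.9 FPKM in HCT116, 41.9 in DLD-1 and 11.9 FPKM in SW620, against 5.93 in HCEC-1CT, so HCEC-1CT carried HOXB7 but almost no HOXB8. HOXB6 stood at 6.71 FPKM in HCT116, 72.0 in DLD-1 and 31.9 FPKM in SW620, against 3.62 in HCEC-1CT. HOXB5, a gene of the enteric nervous system and lung in mice, stood at 1.80 FPKM in HCT116, 8.43 in DLD-1 and 10.2 FPKM in SW620, against 1.89 in HCEC-1CT. HOXB4, known for the expansion of blood stem cells, had a narrow range, at 2.08 FPKM in HCT116, 5.81 in DLD-1 and 2.51 FPKM in SW620, against 1.21 in HCEC-1CT.

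The anterior HOXB genes went separate ways. HOXB3 stood at 4.43 FPKM in HCT116, 90.9 in DLD-1 and 11.0 FPKM in SW620, against 4.71 in HCEC-1CT, so that DLD-1 alone was far above the others. HOXB2, a hindbrain gene at chr17:48540894-48544989 (ENSG00000173917), was the single HOX gene with its highest detected level in HCEC-1CT. It stood at 0.553 FPKM in HCT116, 1.11 in DLD-1 and 0.956 FPKM in SW620, against 14.4 in HCEC-1CT, where it was the highest HOX gene of all. Its log2 ratios were -3.31 for HCT116, -2.86 for DLD-1 and -2.98 for SW620. HOXB1 stayed below 0.05 FPKM in every line.

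In HOXC, 4 of 9 genes were detected in HCT116, 0 in DLD-1 and 7 of 9 in SW620, against 0 in HCEC-1CT. HOXC10, a posterior gene of the hindlimb and spinal cord in mice (ENSG00000180818, chr12:53985065-53990279), stood at 2.77 FPKM in HCT116, 0.0332 in DLD-1 and 82.7 FPKM in SW620 and was listed at 0 in HCEC-1CT. SW620 was far above all others, and HOXC10 was its highest HOX gene, above 97.1% of protein-coding genes.

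HOXC13, a gene of hair and nail, stood at 1.96 FPKM in HCT116 and 23.9 in SW620 and was listed at 0 in DLD-1 and in HCEC-1CT. Its only transcript corresponds to about 120 fragments in HCT116 and 1662 in SW620. HOXC10 and HOXC13 were the 2 HOX genes for which SW620 lay 4-fold or more above each of the other lines. Between them, HOXC11 stood at 0.103 FPKM in HCT116, 0.117 in DLD-1 and 1.24 FPKM in SW620 and was listed at 0 in HCEC-1CT, and HOXC12 reached 0.537 FPKM in SW620, so the high levels were not continuous along the cluster.

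HOXC6 stood at 1.33 FPKM in HCT116, 0.272 in DLD-1 and 6.92 FPKM in SW620, against 0.0400 in HCEC-1CT, and it too passed 4-fold in SW620. HOXC9 was the single HOXC gene that was highest in HCT116, at 2.86 FPKM there and 2.38 in SW620, listed at 0 in DLD-1, against 0.0671 in HCEC-1CT. HOXC4 stood at 0.303 FPKM in HCT116, 0.136 in DLD-1 and 1.48 FPKM in SW620 and was listed at 0 in HCEC-1CT. HOXC5 stood at 0.593 FPKM in HCT116 and 2.36 in SW620 and was listed at 0 in DLD-1, against 0.0376 in HCEC-1CT. All 3 of HOXC4, HOXC5 and HOXC8 were highest in SW620, where HOXC8 reached 0.925 FPKM. HOXC4 and HOXC6 share exonic bases with each other. Of the exonic bases of HOXC5, 59.9% also belong to other gene models on the same strand, but not to HOXC4 or HOXC6. The split of reads between each of these genes and the models it overlaps is uncertain.

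HOXD stayed at low levels in every line. HOXD8 was its only gene detected in 2 lines, at 1.56 FPKM in HCT116, 0.0707 in DLD-1 and 0.585 FPKM in SW620, against 1.23 in HCEC-1CT. HOXD9 stood at 0.274 FPKM in DLD-1 (95% exact Poisson interval 0.142 to 0.481, about 12 fragments) and 1.47 in SW620 (1.17 to 1.83), and was listed at 0 in HCT116 and HCEC-1CT. HOXD1, HOXD3, HOXD4, HOXD10, HOXD11, HOXD12 and HOXD13 reached 0.395 FPKM at most, for HOXD3 in HCT116. HOXD13, the posterior partner of HOXA13 in the limb and hindgut of mice, had 0.119 FPKM at most, in DLD-1.

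Within paralog groups, different copies led in different lines. In group 13 the sum was 9.59 FPKM in HCT116, 40.5 in DLD-1 and 26.5 FPKM in SW620, against 0.444 in HCEC-1CT, and the leading gene was HOXA13 in HCT116, DLD-1 and HCEC-1CT but HOXC13 in SW620. In group 10 the sum was 12.0 FPKM in HCT116, 24.2 in DLD-1 and 92.9 FPKM in SW620, against 3.40 in HCEC-1CT, led by HOXC10 in SW620 and by HOXA10 elsewhere. In group 9 it was 63.5 FPKM in HCT116, 143 in DLD-1 and 53.8 FPKM in SW620, against 6.72 in HCEC-1CT, led by HOXB9 in DLD-1 and by HOXA9 elsewhere. Spearman's rho of the levels of the 39 genes, with 1 library per line, was 0.80 for HCT116 and SW620, 0.73 for HCT116 and DLD-1 and 0.56 for DLD-1 and SW620. For HCEC-1CT it was 0.62 with HCT116, 0.61 with DLD-1 and 0.40 with SW620, and over all protein-coding genes every pair lay between 0.78 and 0.89.

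The transcript table shows how much of each level was assigned to protein-coding transcripts. Among detected genes the median coding share was 99.7% for HCT116, 97.9% for DLD-1 and 99.4% for SW620, against 98.8% for HCEC-1CT. HOXA9 was split between HOXA9-201 and the shorter HOXA9-202, at 24.8 and 29.1 FPKM in HCT116, 22.8 and 11.0 in DLD-1 and 18.0 and 14.2 in SW620, against 4.0 and 2.47 in HCEC-1CT. For HOXC10 in SW620, 63.1% was coding, and the full-length HOXC10-201 held 18.7 of the 82.7 FPKM, while HOXC10-205, a coding fragment of 526 bases, held 33.5. In HCT116 HOXC10-201 held 97.6% of the gene's FPKM. FPKM of short transcripts rests on few bases, so the sum over HOXC10 transcripts in SW620 is less certain than that of a gene with 1 transcript, yet HOXC10-201 alone was higher in SW620 than the whole gene in any other line.

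For HOXB3 in DLD-1, 67.8% of the FPKM was coding, 26.5 FPKM came from HOXB3-205, and 12.2 FPKM came from a transcript that GENCODE 29 does not hold. HOXA3 in DLD-1 was 55.3% coding, with 5.09 FPKM from another such transcript. HOXA6 was mostly noncoding in 2 lines, with coding shares of 20.3% for HCT116, 80.2% for DLD-1 and 41.5% for SW620, against 80.6% for HCEC-1CT. With coding transcripts alone, the HOXA6 log2 ratio in HCT116 was -0.27 in place of 1.05. HOXB2 in SW620 came wholly from the noncoding HOXB2-202, and its coding HOXB2-201 was listed at 0 there, while HOXB2-201 held 98.1% in HCEC-1CT.

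**Figure D4:**
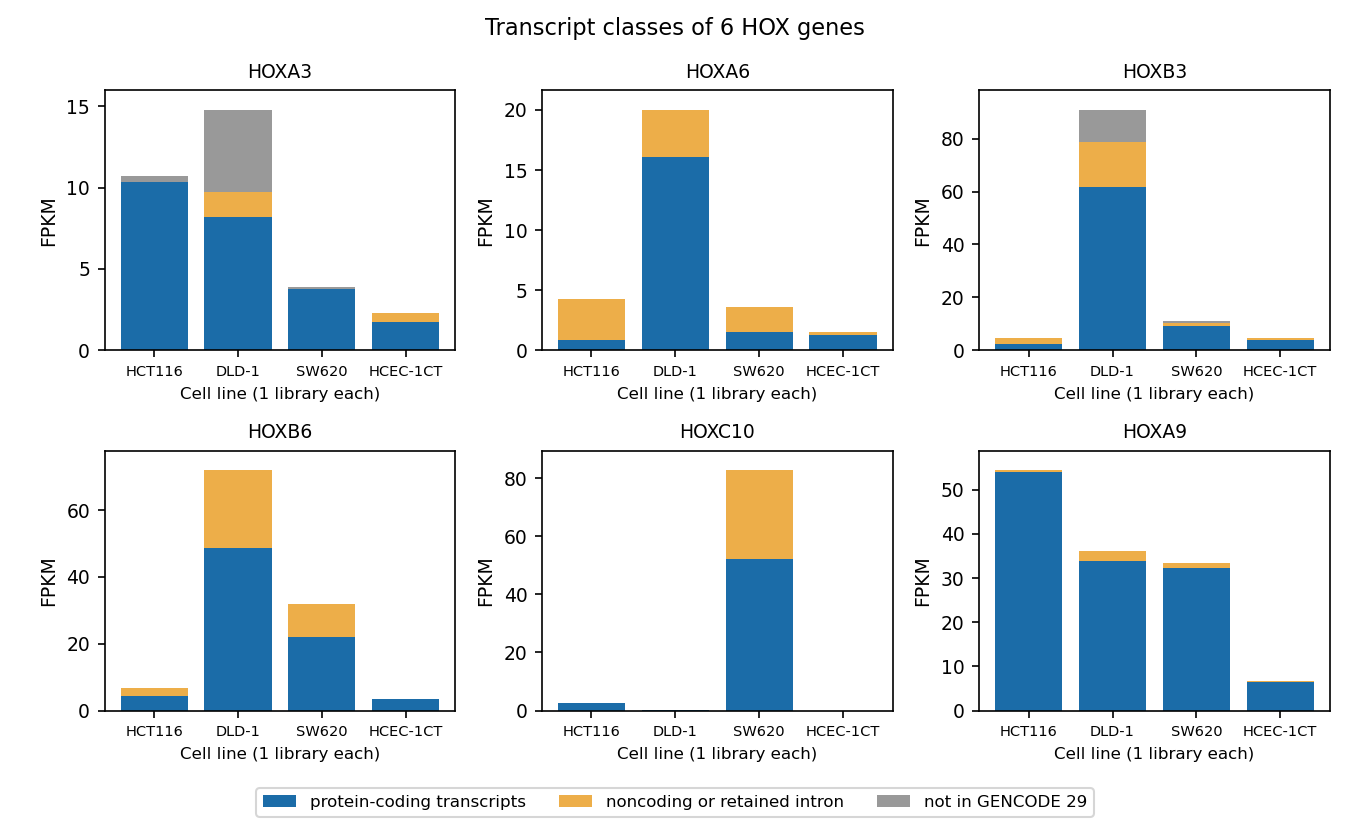
FPKM of 6 HOX genes in each line (1 library per bar), stacked by transcript class in GENCODE 29. HOXA6 in HCT116 is mostly noncoding, HOXC10 in SW620 and HOXB3 in DLD-1 hold sizeable noncoding parts, and HOXA9 is almost all coding in every line.

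The noncoding RNAs of the clusters were most often highest in DLD-1 or SW620. Of 27 listed symbols 24 were in the table, and 13 reached 1 FPKM in at least 1 line, of which 3 were highest in HCT116, 5 in DLD-1, 4 in SW620 and 1 in HCEC-1CT. By 4-fold, 1 was higher in HCT116, the hairpin MIR196A1, and 0 were in SW620. In DLD-1, 3 were higher, namely HOTTIP, HOXB-AS3 and MIR196A1, and 1 was lower, HOXB-AS1. The share of all noncoding genes past 4-fold was not computed, so these counts have no background beside them. HOTTIP, transcribed away from HOXA13 and known to keep the 5′ HOXA genes active, stood at 0.281 FPKM in HCT116, 25.2 in DLD-1 and 0.0513 FPKM in SW620, against 0.0369 in HCEC-1CT, so it was high in DLD-1 alone, as HOXA13 was. HOXB-AS3 stood at 0.624 FPKM in HCT116, 46.9 in DLD-1 and 2.50 FPKM in SW620, against 1.05 in HCEC-1CT. Its locus overlaps HOXB3, HOXB4 and HOXB6, which were also highest in DLD-1, and HOXB5, which was highest in SW620. HOXB-AS1 stood at 0.497 FPKM in HCT116, 0.402 in DLD-1 and 1.04 FPKM in SW620, against 4.77 in HCEC-1CT, so HCEC-1CT was highest, as for HOXB2. Its exons overlap those of HOXB2 on the other strand, for 3.7% of the exonic bases of HOXB2. They also overlap those of HOXB3, which was highest in DLD-1. HOXA-AS2 was highest in HCT116, at 1.62 FPKM there, 0.893 in DLD-1 and 0.727 in SW620, against 1.09 in HCEC-1CT, unlike HOXA3 and HOXA4 at the same locus. Of the exonic bases of HOXB6, 16.3% are also exonic on the other strand, as are 5.3% of those of HOXB3. On the same strand, HOXB6 shares 16.6% of its exonic bases with HOXB3. HOXB3 in turn shares 7.9% of its own on that strand with HOXB6 or HOXB4. Whether reads were shared in any of these stretches was not tested, so the levels of HOXB3 and HOXB6 may not be fully separate.

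HOTAIRM1, at the 3′ end of HOXA, stood at 6.72 FPKM in HCT116, 6.47 in DLD-1 and 15.3 FPKM in SW620, against 4.32 in HCEC-1CT. HOTAIR, made from the HOXC cluster and known to recruit Polycomb, was below 1 FPKM in every line, with 0.986 FPKM in SW620 as the highest. The hairpin MIR196A1, which lies beyond HOXB9, stood at 4.90 FPKM in HCT116, 24.3 in DLD-1 and 2.68 FPKM in SW620 and was listed at 0 in HCEC-1CT. MIR196B stood at 0.0904 FPKM in HCT116, 0.0732 in DLD-1 and 2.20 FPKM in SW620, against 0.0604 in HCEC-1CT, and MIR196A2 reached 0.123 FPKM at most, in SW620. The 3 hairpins thus differed in their order of lines, and of them MIR196A1 alone was highest in DLD-1, as were 19 of the 39 HOX genes. HOXB8 was among these genes, but SW620 lay above HCT116 for HOXB8 and below HCT116 for MIR196A1. A hairpin is shorter than a usual sequencing fragment, so these values are rough, and mature microRNAs were not measured. MIR10A stayed below 0.1 FPKM.

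The cofactor genes were higher in HCEC-1CT than in the cancer lines in several cases. MEIS1 stood at 0.00774 FPKM in HCT116 and 0.928 in SW620 and was listed at 0 in DLD-1, against 38.3 in HCEC-1CT. MEIS2 stood at 4.42 FPKM in HCT116, 1.12 in DLD-1 and 0.626 FPKM in SW620, against 13.8 in HCEC-1CT. Of the 9 cofactors, 2 were 4-fold lower in all 3 cancer lines, MEIS1 among them, and PBX4 was higher in all 3, at 4.34 FPKM in HCT116, 8.59 in DLD-1 and 6.92 FPKM in SW620 and listed at 0 in HCEC-1CT. In all, 2 were lower for HCT116, 5 for DLD-1 and 4 for SW620, where 3.92%, 4.54% and 4.37% of protein-coding genes were. MEIS3 stood at 18.8 FPKM in HCT116 and 9.87 in SW620 and was listed at 0 in DLD-1, against 37.3 in HCEC-1CT, while PBX2 stayed between 14.9 and 27.8 FPKM in all 4 lines.

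Of the 14 upstream regulators listed, 2 were 4-fold higher in all 3 cancer lines, where 2.4% of protein-coding genes were, and 0 were 4-fold lower in any. CDX2, the caudal factor that sets intestinal identity and activates HOX genes, stood at 3.27 FPKM in HCT116, 70.8 in DLD-1 and 6.04 FPKM in SW620 and was listed at 0 in HCEC-1CT. CBX2, a Polycomb subunit, stood at 10.4 FPKM in HCT116, 9.73 in DLD-1 and 6.94 FPKM in SW620, against 0.570 in HCEC-1CT. RARG, a retinoic acid receptor, passed 4-fold in DLD-1 alone, at 21.3 FPKM in HCT116, 37.1 in DLD-1 and 9.44 FPKM in SW620, against 7.23 in HCEC-1CT. The Polycomb genes EZH2, EED and SUZ12 and the activator KMT2A did not pass 4-fold in any line. DLD-1 was the highest line for CDX2, HOTTIP and 19 of the 39 HOX genes, HOXA13 and HOXB9 among them. SW620 was highest for 12 HOX genes, HCT116 for 6, such as HOXA9 and HOXB13, and HCEC-1CT for 2. In DLD-1, 0 HOXC genes were detected. With 4 libraries this is a description only, and a link of CDX2 to the HOX levels was not tested.

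**Figure D5:**
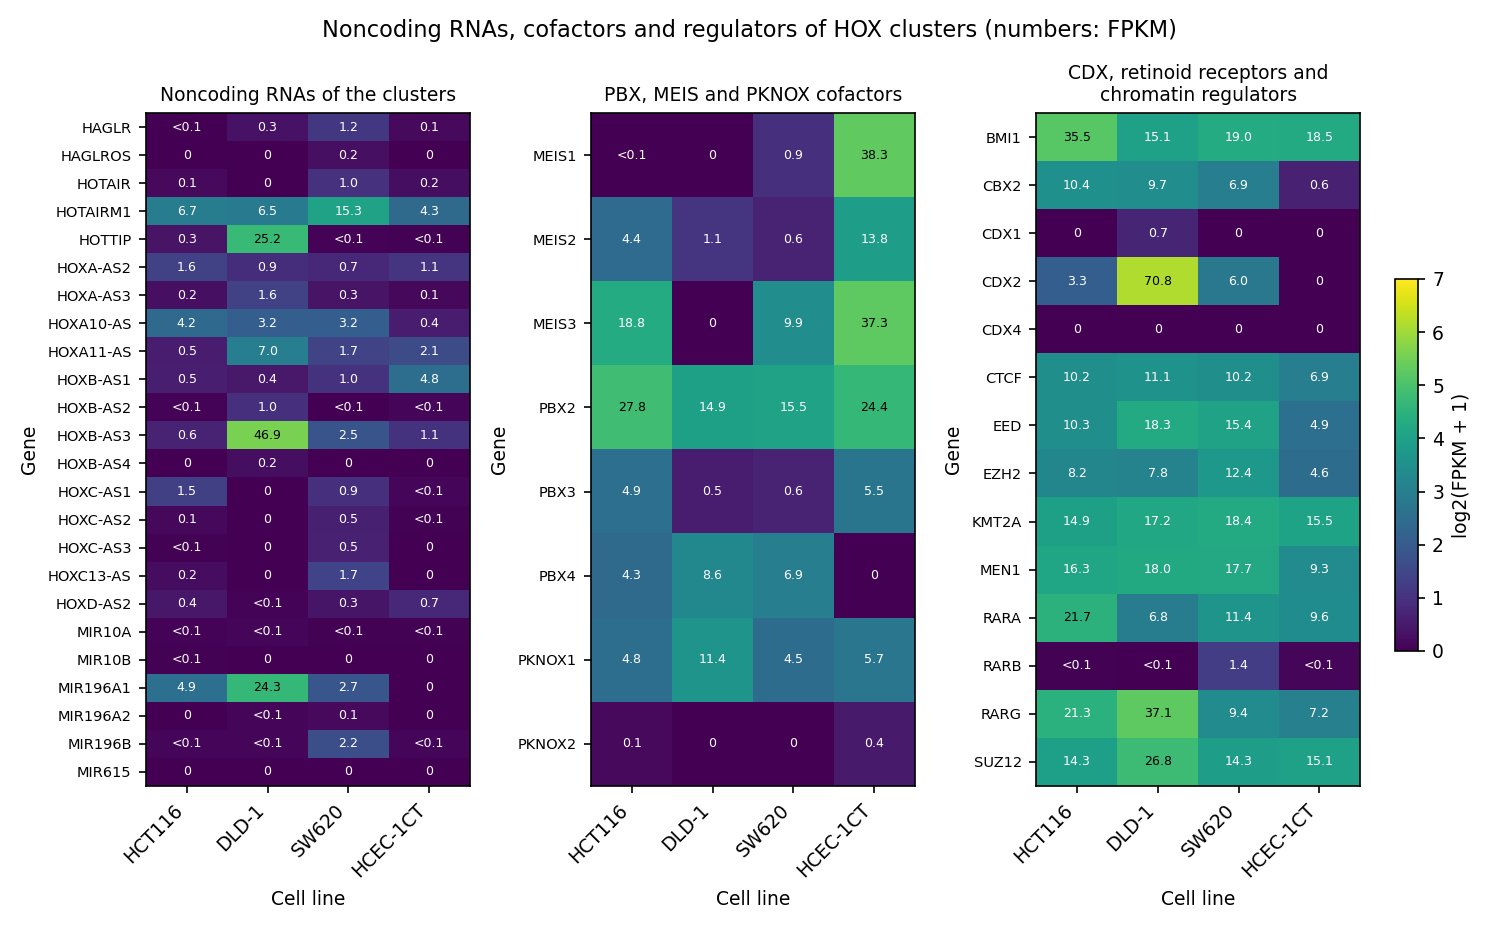
Levels of 24 noncoding RNAs of the clusters, 8 cofactors and 14 regulators in each line, with colour for log2(FPKM + 1) and the FPKM printed in each cell. HOTTIP, HOXB-AS3 and CDX2 are high in DLD-1, and MEIS1, MEIS2 and MEIS3 are highest in HCEC-1CT.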

How the data were processed

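Libraries of 4 lines, 1 each, were compared as FPKM per gene and per transcript, the values the authors deposited. The tools HISAT2 and FastQC and the build hg38 are named per the submitters' processing notes. What computed the FPKM, with which annotation and filter, and whether libraries kept strand: not given in the sources used here. Each of the 2 tables has 1 column of values that matches no sample and was not used. Gene and transcript types came from GENCODE 29, in which 38 of the 39 members had the same coordinates, and gene values equalled the sum of their transcripts to within 1.1e-05 FPKM.

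Depth was read from single-transcript genes, whose FPKM times length peaked at multiples of 1 fragment. Per library, 245 to 261 values lay at 2 steps and 28 to 34 at 2.25 steps, each with a relative tolerance of 0.01. The depth came to about 25300000 fragments for HCT116, 23300000 for DLD-1 and 28700000 for SW620, against 29500000 for HCEC-1CT. With 1 library per line only values, log2 ratios (pseudocount 1) and counts past 4-fold are given, set beside all 19892 protein-coding genes. All members are accounted for, and those at 1 FPKM or more in any line are named with values, except that 1 HOX gene and 1 cofactor count in every sum and count but are not reported here singly. The members, lists and rules were chosen with earlier results of these data known. Promoters were to be shown for neighbours past 4-fold in all 3 cancer lines; RefSeq entries for these were not used here, so HOXA9 and HOXA13 were shown. Homeodomain sequences, also planned, were not used here. Python 3.11.15, pandas 2.3.3, NumPy 2.4.6, SciPy 1.17.1 and matplotlib 3.10.9 were used. The rule for calls and the depth step were tested on simulated data. For the rule, every simulated gene had a level in HCEC-1CT above that of any HOX gene there, of which HOXB2 was highest at 14.4 FPKM. The simulation thus does not show how the rule behaves at the low levels of the HOX genes, where the pseudocount weighs most. Alternatives were other pseudocounts, folds, detection levels, scalings and coding transcripts alone.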

Additional observations from a re-analysis of the deposited data

How the results depend on the processing

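No paired analysis was possible because each line has 1 library and the result comes from no test. The counts of detected HOX genes stayed within 1.5 times of the reported ones with limits of 0.5 or 2 FPKM, median-ratio scaling, the TPM scale or coding transcripts alone. Counts past 4-fold moved more. The share of protein-coding genes past the same limit is given with each. With a pseudocount of 0.1 the number higher was 13 in HCT116 (14.6%) and 18 in SW620 (13.5%), and 2 were lower in DLD-1 (7.93%). With a pseudocount of 5 it was 1 in HCT116 (2.01%) and 6 in DLD-1 (2.81%), 0 were lower in HCT116 (1.78%), DLD-1 (2.18%) or SW620 (1.94%), and in all 3 lines 0 were higher (0.432%) and 0 lower (1.23%). At 2-fold 14 were higher in HCT116 (20.7%), 18 in SW620 (18.6%) and 5 in all 3 lines (7.9%), and 2 were lower in HCT116 (8.95%), DLD-1 (9.45%) and SW620 (9.79%) each. On the TPM scale 7 were higher in HCT116 (7.85%). The smaller counts at a pseudocount of 5 follow from its damping of low genes. Among ratios of single members under the other settings, 328 stayed on their side of 4-fold (those below it moving by under 0.5), 31 newly passed it, 20 no longer did and 41 moved more below it, and 0 called ratios changed sign. Below the limit, 3 ratios in HCT116 did: HOXA6 with coding transcripts alone, and on the median-ratio and TPM scales HOXD8 (0.20 as reported, -0.02 and -0.08) and HOXA4 (0.06 as reported, -0.01 and -0.05). With coding transcripts alone HOXC held 35.5% of HOX FPKM in SW620 and HOXB 36.5%, in place of 40.0% and 35.0%, so HOXC no longer held the largest share there. Counting error is wide for levels that rest on few fragments, such as HOXD13 in DLD-1 (0.119 FPKM, 0.0422 to 0.25), and every value is limited by the single library analysed per line.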

Other observations

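Genes beside the clusters give the setting of the HOX levels. Of 16 listed symbols 14 were in the table, and 11 reached 1 FPKM in at least 1 line. Of these, 2 were 4-fold higher in all 3 cancer lines, where 2.4% of protein-coding genes were, and 0 were 4-fold lower in any. SKAP1, an adaptor of T cell signalling that lies next to HOXB1, stood at 5.94 FPKM in HCT116, 9.46 in DLD-1 and 21.2 FPKM in SW620 and was listed at 0 in HCEC-1CT. SNX10, a sorting nexin beyond SKAP2 on the 3′ side of HOXA, stood at 9.84 FPKM in HCT116, 15.7 in DLD-1 and 12.2 FPKM in SW620, against 0.156 in HCEC-1CT. EVX1, an even-skipped homeobox gene beyond HOXA13, stood at 0.200 FPKM in HCT116, 3.10 in DLD-1 and 0.225 FPKM in SW620 and was listed at 0 in HCEC-1CT, so it was highest in DLD-1, as HOXA13 was. PRAC1 and PRAC2, small genes between HOXB9 and HOXB13 known from prostate and distal colon, reached 0.0753 FPKM in HCT116 and 1.07 FPKM in DLD-1 at most. LNPK and MTX2, which flank HOXD, were expressed in every line, LNPK at 8.67 FPKM in HCT116, 11.8 in DLD-1 and 7.79 FPKM in SW620, against 8.29 in HCEC-1CT, and MTX2 at 15.4 FPKM in HCT116, 21.0 in DLD-1 and 19.4 FPKM in SW620, against 6.40 in HCEC-1CT, while the HOXD genes between them stayed at 1.56 FPKM or less.

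Transcript use differed between lines within the same HOX gene. HOXA10-202, whose start lies further upstream than that of HOXA10-201, held 5.0% of HOXA10 for HCT116, 24.5% for DLD-1 and 56.8% for SW620, against 26.8% for HCEC-1CT. HOXC6 came mostly from HOXC6-201 in HCT116, with 87.2%, and in SW620 was split between HOXC6-201, with 50.6%, and HOXC6-202, with 44.1%. HOXC9-201 held 97.6% in HCT116 and 40.9% in SW620, where HOXC9-203 held 48.6%. The program that divided reads among overlapping transcripts is not named in the labels, and these shares are its values.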
